A study of Oryctolagus cuniculus with 16 samples.

Results

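Vein grafts taken 7 days after surgery were compared with grafts taken 1 day after surgery, to describe which genes rose and which resolved during the first week in the grafted vein. The comparison rests on 12 of the 16 arrays of the series, 6 of day 7 (C1 to C6) and 6 of day 1 (A1 to A6), which were chosen by their labelled time point. Each array held the RNA of vein tissue of male rabbits (Oryctolagus cuniculus), labelled with Cy3 and hybridized to an Agilent rabbit array with 1 colour. The other 4 arrays held veins of the sham surgery group, which served as the control group, and their levels are given beside those of the grafts. The labels gave no strain, age, donor vein or host artery, and they did not say that the arrays of a day came from separate animals.

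Arrays 1, 3 and 5 of each day, and arrays 2, 4 and 6, differed by less than replicate spots of a probe within an array. They were therefore averaged, which left 2 samples of day 1 and 2 samples of day 7, while the 4 sham arrays counted as 4 samples. Between the 2 samples of a day, the variance was 0.664 to 1.44 times that of the spots on day 1 and 1.15 to 1.35 times on day 7. The 4 sham arrays formed 2 pairs that lay far apart, with 1.53 and 2.89 times the variance of the spots within the pairs and 18.8 to 23.4 times between them. The model estimated 1 spread per gene over the 3 groups, so that the sham spread enters the standard errors and p-values of day 7 against day 1. For MMP12, for example, the SD was 0.074 in the samples of either day and 1.20 in the sham samples. The p-values measure only the spread between these 8 samples, which may be technical. Each of 3 scans held day 1 and day 7 arrays, but day 1 always occupied slide positions 1 and 2 and day 7 positions 3 and 4, so that slide position and day cannot be told apart. The 4 sham arrays shared a separate scan that held no graft array. Differences between grafts and sham samples therefore cannot be told apart from differences between scans. The probes well above background numbered 33235 to 34295 on day 1 arrays, 32973 to 34329 on day 7 arrays and 34832 to 36319 on sham arrays. Day 7 arrays were brighter, however, with 75th percentiles of 2488 to 2831 against 863 to 1023 on day 1 arrays. Sham arrays lay between them, at 1329 to 2026. Quantile normalization removes this gap in brightness from the levels below. The gap runs along with both day and slide position, and its source was not tested. Precision is limited by how few arrays there were. All levels below are quantile-normalized signals on the log2 scale, so that a difference of 1 is a doubling, and all adjusted p-values come from a limma model of the 3 groups with Benjamini-Hochberg adjustment.

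A vein that is moved into the arterial circulation loses part of its endothelium and is entered within hours by neutrophils, which clear debris and are followed by monocytes that become macrophages. In the days that follow, fibroblasts and smooth muscle cells divide, migrate and lay down collagen and proteoglycans, and proteases reshape the matrix that holds them. This wall growth is what is called neointima, and its excess narrows the graft, which is known as restenosis. In tissue RNA, fewer cells of a type and less RNA per cell cannot be told apart.

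Of 19328 genes tested, 8020 were differentially expressed genes (DEGs, with an adjusted p below 0.05 and an absolute log2 difference of at least 1), or 41.5%. Among them 3717 (19.2%) were higher on day 7 and 4303 (22.3%) were lower, and 12346 genes passed the adjusted p alone. In 17287 genes (89.4%) the day 7 samples did not overlap the day 1 samples. With arrays scaled to their 75th percentile, 2651 DEGs were higher and 7643 were lower, and the median difference of all genes moved from -0.16 to -0.64. A gene name could be given to 2001 of the tested genes, and 412 of these (20.6%) were higher DEGs and 419 (20.9%) were lower DEGs. On day 7, 193 named DEGs were higher by 2 or more on the log2 scale and 142 were lower by as much. Shares of a list close to these background shares are not results about that list.

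**Figure D1:**
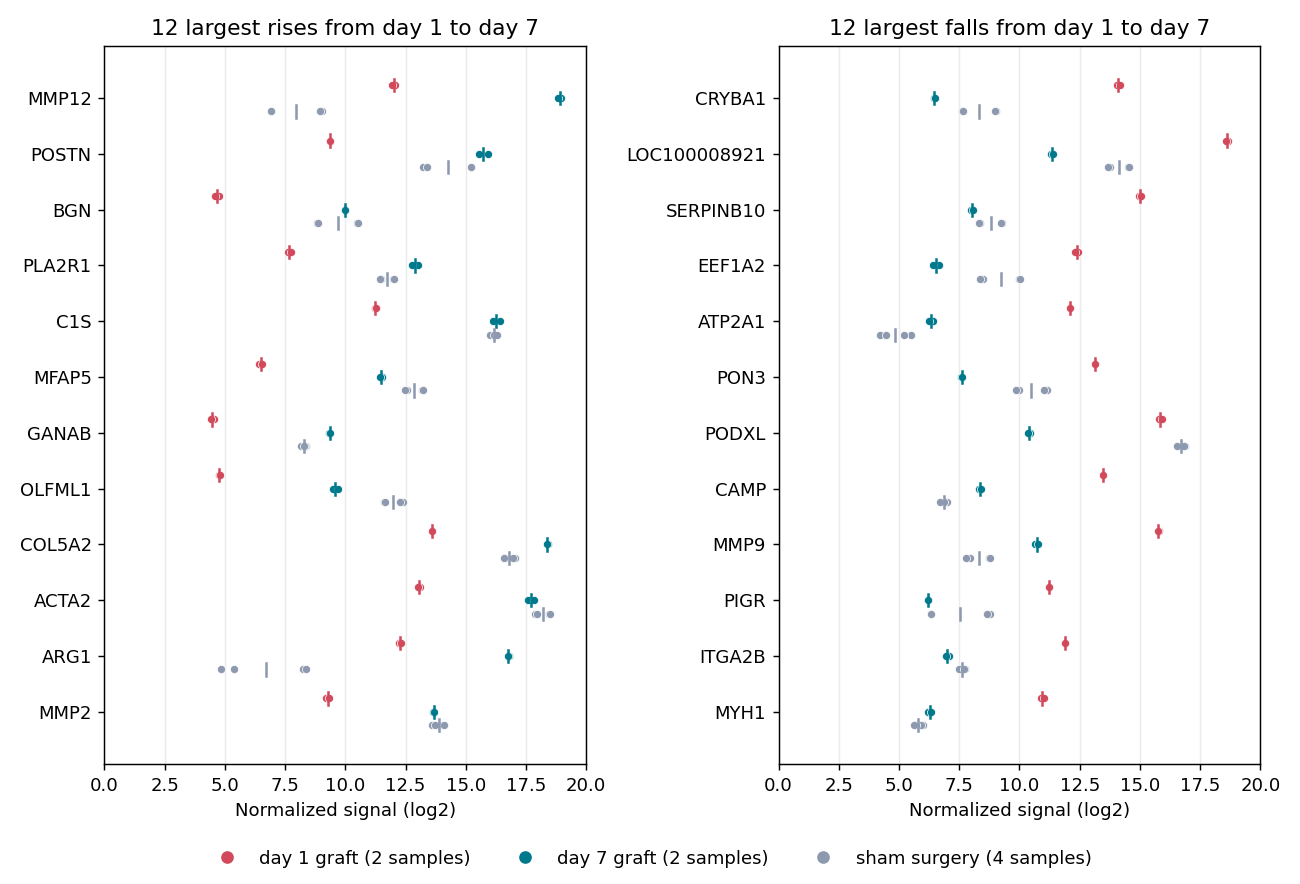
Normalized signal on the log2 scale (horizontal axis) of the 12 named genes with the largest rise (left) and the 12 with the largest fall (right). Points are samples and short lines are group means. MMP12 rose from 12.06 and 11.95 to 18.95 and 18.84, and CRYBA1 fell from 14.06 and 14.16 to 6.45 and 6.49.

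The largest rise among named genes that were well above background on all graft arrays was that of MMP12, the elastase of macrophages. Its level was 12.06 and 11.95 in the day 1 samples and 18.95 and 18.84 in the day 7 samples, a 119-fold rise (log2 difference 6.89 ± 0.79, SE, adjusted p = 0.000246). The sham samples lay between 6.90 and 9.03, so that MMP12 was higher at both times than in any sham sample. The next largest rise belonged to POSTN, which encodes periostin, a matrix protein of wound fibroblasts. It stood at 9.34 and 9.36 on day 1 and at 15.56 and 15.90 on day 7 (log2 difference 6.38 ± 0.74, adjusted p = 0.000259), with sham levels of 13.22 to 15.22. Thus POSTN was below all sham samples on day 1 and above them on day 7.

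The 12 largest rises also included matrix proteins, immune genes and smooth muscle actin. BGN (biglycan), MFAP5 (a microfibril protein), COL5A2 (a chain of collagen V), OLFML1 (olfactomedin-like 1) and MMP2 (gelatinase A) rose by 5.31, 5.001, 4.77, 4.81 and 4.39 on the log2 scale. C1S, a serine protease of the first complement component, rose from 11.23 and 11.26 to 16.12 and 16.40, which set it within or just above the sham range of 16.01 to 16.29. ACTA2, the actin of smooth muscle, rose 25.1-fold. GANAB, a glucosidase of the endoplasmic reticulum, rose from 4.55 and 4.40 to 9.33 and 9.36. ARG1, the arginase of alternatively activated macrophages, rose from 12.24 and 12.30 to 16.78 and 16.76 and reached far above the sham samples at 4.85 to 8.36. Its adjusted p of 0.0143 was lost (0.0572 to 0.0620) when any one of the 4 graft samples was left out. PLA2R1, a receptor of secreted phospholipases, rose by 5.23 by its brightest probe, while the lowest of its 3 probes gave 0.51.

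The 12 largest falls were led by CRYBA1. This gene, which encodes a crystallin known from the eye lens, fell by 7.64 on the log2 scale, and its 10 probes lay between -7.69 and -7.36. LOC100008921, a gene without a symbol, fell from 18.66 and 18.57 to 11.30 and 11.39. SERPINB10, a serine protease inhibitor of blood-forming cells, fell from 14.96 and 15.04 to 7.97 and 8.06, and on day 7 it was just below the sham samples at 8.33 to 9.27. CAMP, the cathelicidin peptide of neutrophil granules, fell by 5.12 and MMP9, the gelatinase that neutrophils store, by 5.05. ITGA2B, the integrin chain of platelets, fell from 11.90 in both day 1 samples to 7.07 and 6.94. PODXL, a sialomucin of endothelium, fell from 15.77 and 15.92 to 10.45 and 10.37, although the sham samples stood at 16.54 to 16.85. PON3, a lactonase, fell by 5.53, and PIGR, which carries immunoglobulins across epithelia, fell by 5.04, with -5.74 to -1.09 over its 6 probes. EEF1A2, ATP2A1 and MYH1, all known from skeletal muscle, fell by 5.84, 5.77 and 4.68.

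**Figure D2:**
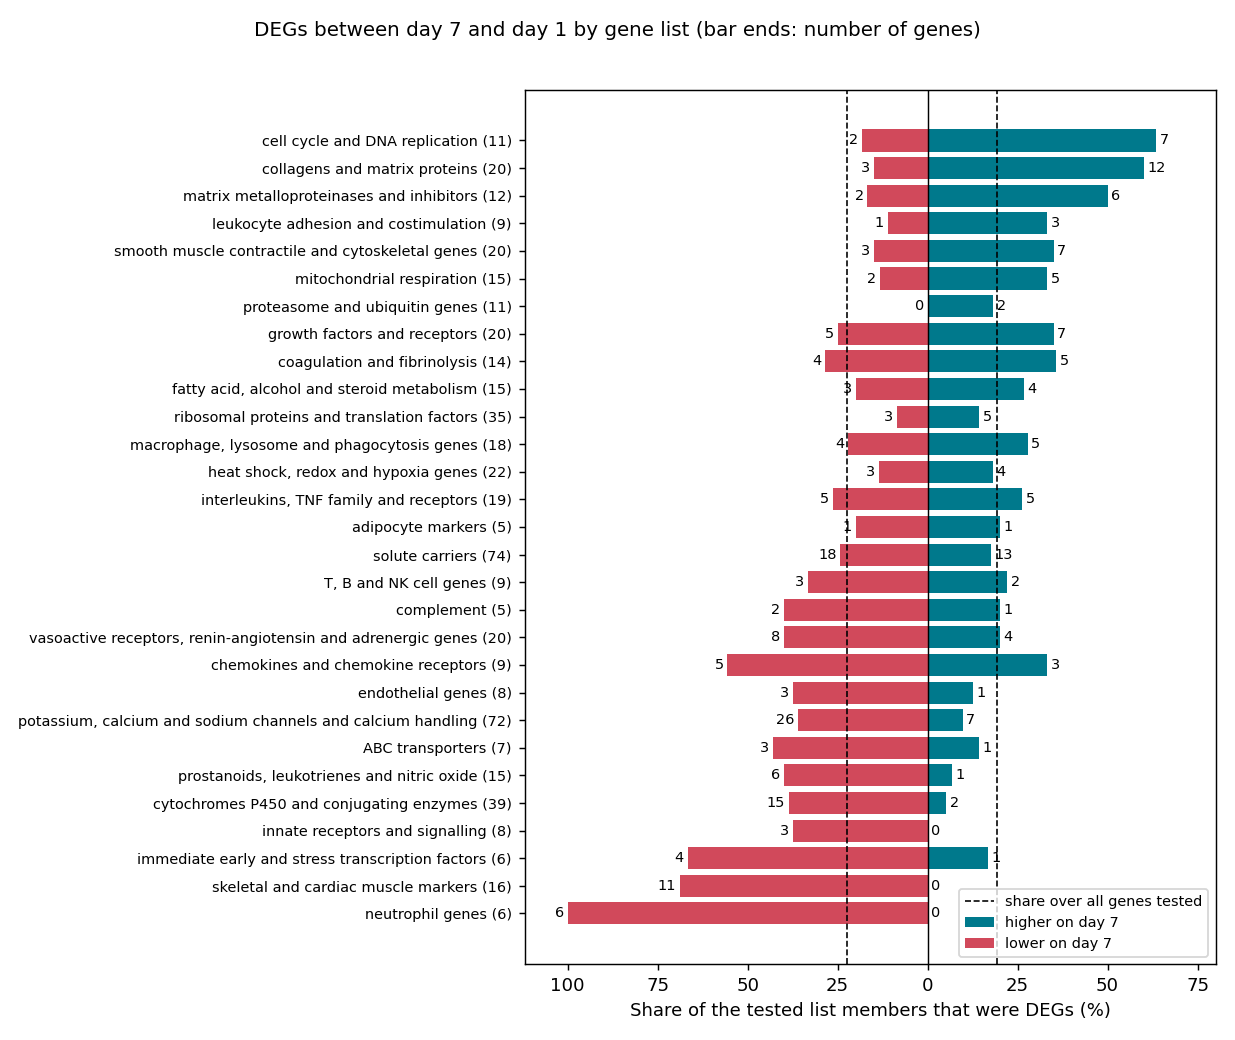
Share of the tested members of each gene list with at least 5 tested genes that were DEGs, higher on day 7 to the right and lower to the left (horizontal axis, in percent), with the number of genes at the bar ends and the number tested in parentheses. Dashed lines mark the shares over all genes tested (19.2% higher and 22.3% lower). The collagen and matrix list has 12 of 20 members higher, and the neutrophil list has 6 of 6 lower.

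Genes of neutrophils fell together. All 6 tested genes of this list fell, against 22.3% of all genes, with a median log2 difference of -3.01, or -2.85 relative to the median of all genes, and the count was 6 with 75th percentile scaling and with normexp background correction, and 5 when the scaled arrays were also centred on the median gene, where S100A8 lost its call. S100A8 and S100A9, the calprotectin subunits that fill the neutrophil cytoplasm, both fell. S100A9 stood at 18.07 and 18.09 on day 1 and at 15.13 and 15.33 on day 7, and the sham samples lay between 11.84 and 13.31. S100A8 fell by 2.24, but its adjusted p of 0.0119 became 0.0487 to 0.0544 when 1 graft sample was left out, and the call was lost without day 1 sample 2, day 7 sample 1 or day 7 sample 2. FPR1, the receptor for bacterial formyl peptides, fell from 14.87 in both samples to 11.52 in both (10.2-fold), well above its sham range of 5.80 to 6.92. CXCR1 and CXCR2, the receptors that guide neutrophils along CXCL8, fell by 3.17 and 1.92. CXCR2 reached 7.36 and 7.58, at the level of the sham samples (7.51 to 7.77), whereas CXCR1 at 9.98 and 10.22 stayed above them (9.28 to 9.71).

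Chemokines and their receptors moved in both directions. Among 9 chemokines and chemokine receptors, 5 were lower (55.6%) and 3 higher (33.3%), against 22.3% and 19.2% of all genes. With scaling to the 75th percentile 3 were lower and 2 higher. CXCL8, which attracts neutrophils, fell from 18.57 and 18.65 to 15.40 and 15.56 (8.71-fold, adjusted p = 4.97e-06) and still stood above its sham range of 10.66 to 10.96. CCL4, which attracts monocytes and T cells, fell by 1.499, and its adjusted p of 0.0253 rose to 0.0870 to 0.0912 with any graft sample left out. Its call was also lost with 75th percentile scaling. CCL2, the main monocyte attractant, fell by 1.02, from 17.97 and 18.01 to 17.00 and 16.94, but its call was lost without day 7 sample 2, and its difference was -0.53 after 75th percentile scaling and 0.17 when the scaled arrays were centred on the median gene. In the other direction, CCL21, a chemokine of lymphatic vessels, rose from 6.70 and 6.95 to 10.58 and 10.81 (sham 12.58 to 13.12). The chemokine receptor CCR1 rose by 1.18, a call that both the 75th percentile scaling and normexp lost.

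Among 19 interleukins, members of the TNF family and their receptors, 5 rose and 5 fell. These shares of 26.3% each were near those of all genes (19.2% and 22.3%). IL10, an inhibitory cytokine, fell from 8.15 and 8.19 to 4.45 and 4.61, next to the sham samples (4.57 to 4.93). IFNG, the interferon of T and natural killer cells, fell from 15.72 and 15.68 to 13.27 and 13.06 (sham 9.14 to 10.48), although the other of its 2 probes gave -0.12. TNF fell from 15.17 and 15.24 to 13.45 and 13.65 (3.15-fold) against sham levels of 7.00 to 7.47. FAS, the death receptor, fell by 1.51, but its 6 probes ran from -1.51 to 0.07 and the call was lost without day 1 sample 2 or day 7 sample 1. Higher on day 7 were TNFSF13B, the B cell survival factor known as BAFF (8.45 and 8.44 to 11.19 and 11.13), and CSF2, the growth factor of granulocytes and macrophages (8.20 and 8.21 to 10.57 and 10.63). IL18, a partner of interferon induction, rose by 1.33 and IL18R1, a chain of its receptor, by 1.72, but the call of IL18R1 was lost with 75th percentile scaling and with normexp.

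IL1B, IL1RN and IL6 were not DEGs, and they were chosen for description after their values were seen. IL1B, the fever cytokine, stood at 18.57 and 18.51 on day 1 and at 18.47 and 18.44 on day 7, with a log2 difference of -0.09 ± 0.67 and an adjusted p of 0.913, and its 3 probes ran from -1.73 to -0.09. The difference was -0.67 after 75th percentile scaling and 0.03 when the scaled arrays were centred on the median gene. The sham samples lay between 10.75 and 12.62, so that both days were more than 5 log2 units above them. IL1RN, the antagonist of the same receptor, was at 18.67 and 18.57 and then at 18.36 and 18.40 (adjusted p = 0.682). IL6 differed by -1.48 ± 1.46 (adjusted p = 0.402), and it passed the test when the day 1 and day 7 samples were fitted without the sham samples, which spanned 8.17 to 12.07. A p that misses the threshold does not show that the levels of these genes were equal.

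**Figure D3:**
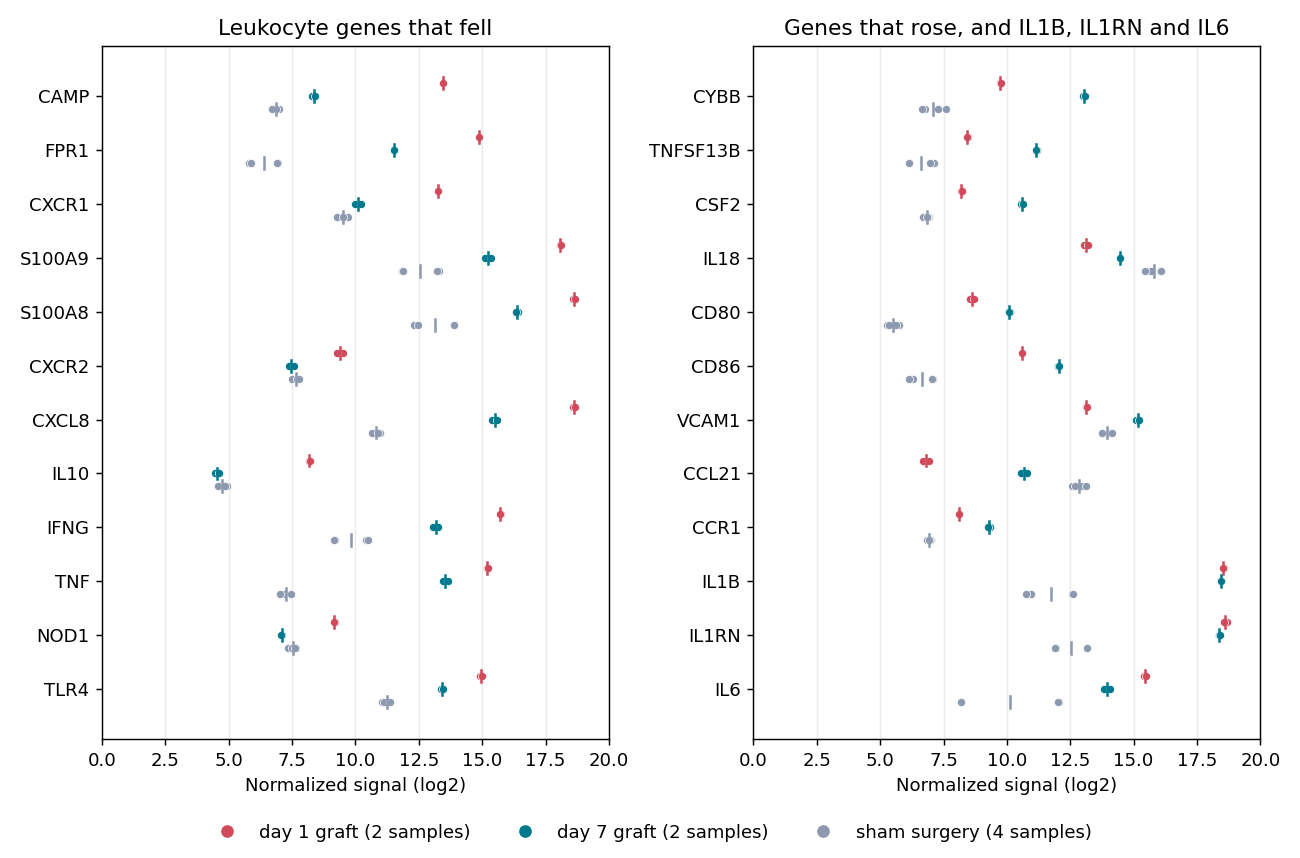
Normalized signal on the log2 scale (horizontal axis) of leukocyte genes that fell (left) and of genes that rose together with IL1B, IL1RN and IL6 (right). Points are samples and short lines are group means. CXCL8 fell from 18.57 and 18.65 to 15.40 and 15.56, while IL1B stood at 18.57 and 18.51 and then at 18.47 and 18.44.

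Of 8 tested genes of innate receptors and signalling, 0 rose and 3 fell (37.5%, against 22.3% of all genes). These were TLR4, the receptor of bacterial lipopolysaccharide (14.90 and 14.98 to 13.35 and 13.45), its partner LY96, and NOD1, a receptor for cell wall fragments, by 2.07. The call of LY96 was lost without day 7 sample 1 and with 75th percentile scaling. Among 9 genes of leukocyte adhesion and costimulation, 3 rose (33.3%) and 1 fell (11.1%), against 19.2% and 22.3% of all genes. VCAM1, to which monocytes and lymphocytes adhere, rose from 13.10 and 13.17 to 15.08 and 15.23, above the sham range of 13.75 to 14.16. CD80 and CD86, the costimulatory ligands of antigen-presenting cells, rose by 1.48 and 1.45. With 75th percentile scaling the count of this list was 3 higher and 5 lower.

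Of 18 tested macrophage, lysosome and phagocytosis genes, 5 rose (27.8%) and 4 fell (22.2%), near the shares of all genes (19.2% and 22.3%). The median difference was -0.09, close to that of all genes. CYBB, the catalytic subunit of the phagocyte oxidase, rose from 9.73 and 9.77 to 13.02 and 13.07 (9.84-fold, adjusted p = 8.87e-05). Its partner subunits went the other way. NCF1 fell from 12.28 and 12.30 to 8.43 and 8.51, NCF4 fell by 2.63 and CYBA, the membrane partner of CYBB, by 1.16. APOE, the apolipoprotein that foam cells secrete, was not above background on any day 1 array and was at least 21.03-fold higher on day 7, at 8.12 and 7.91 against sham levels of 7.04 to 8.16. CTSK, a lysosomal collagenase, rose by 1.05 and ATP6V1E1, a subunit of the proton pump of lysosomes, by 1.502, but both the 75th percentile scaling and normexp lost the call of CTSK. SPP1, osteopontin, was at 19.20 in both day 1 samples and at 17.42 and 16.61 on day 7, and its adjusted p of 0.0372 became 0.0671 to 0.169 with any graft sample left out, with the call also lost under normexp. MSR1, the scavenger receptor of macrophages and a marker that was not a DEG, was at 15.25 and 15.33 and then at 15.83 and 15.70, against 8.76 to 9.497 in the sham samples.

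Summed over the named markers of each cell type, the samples of the days overlapped for adipocytes alone among the 11 cell types. In 89.4% of all genes tested the day 7 samples also did not overlap the day 1 samples. The lack of overlap is therefore not a result about the cell types. The neutrophil sum fell from 19.45 and 19.50 to 16.95 and 16.98, with 6 of 6 markers lower. These are the same 6 genes as in the neutrophil list, so that the sum adds no further genes. S100A8 (18.58 and 18.65 on day 1) and S100A9 (18.07 and 18.09) were far brighter than the next marker, FPR1 (14.87 in both samples). The macrophage sum rose from 17.12 and 17.15 to 19.24 and 19.18, with MMP12 and CYBB higher out of 4 markers. MMP12 carried this rise, since the sum without it was 17.08 and 17.11 on day 1 and 16.79 and 16.91 on day 7, and CD14, the lipopolysaccharide coreceptor of monocytes, was at 16.59 and 16.60 and then at 15.51 and 15.90 (adjusted p = 0.109). The sums of the sham samples were 13.26 to 14.69 for neutrophils and 11.01 to 12.15 for macrophages. The T cell sum fell from 10.28 and 10.27 to 8.96 and 8.94, but its members were split. CD4, the coreceptor of helper T cells, and CD5 fell by 2.75 and 1.51, and CD3E, a chain of the T cell receptor complex, rose by 1.29, a call that both the 75th percentile scaling and normexp lost. MS4A1, the CD20 of B cells and the sole named B cell marker, fell by 1.89, a call that normexp lost. HBB2, a globin of red cells, was at 18.96 to 19.17 in all graft samples. In the antigen and interferon list a single gene had a name, IRF1, the interferon regulatory factor, which rose from 4.16 and 3.85 to 6.86 in both samples, with 5 of the 6 day 1 arrays above background, a call that normexp lost.

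**Figure D4:**
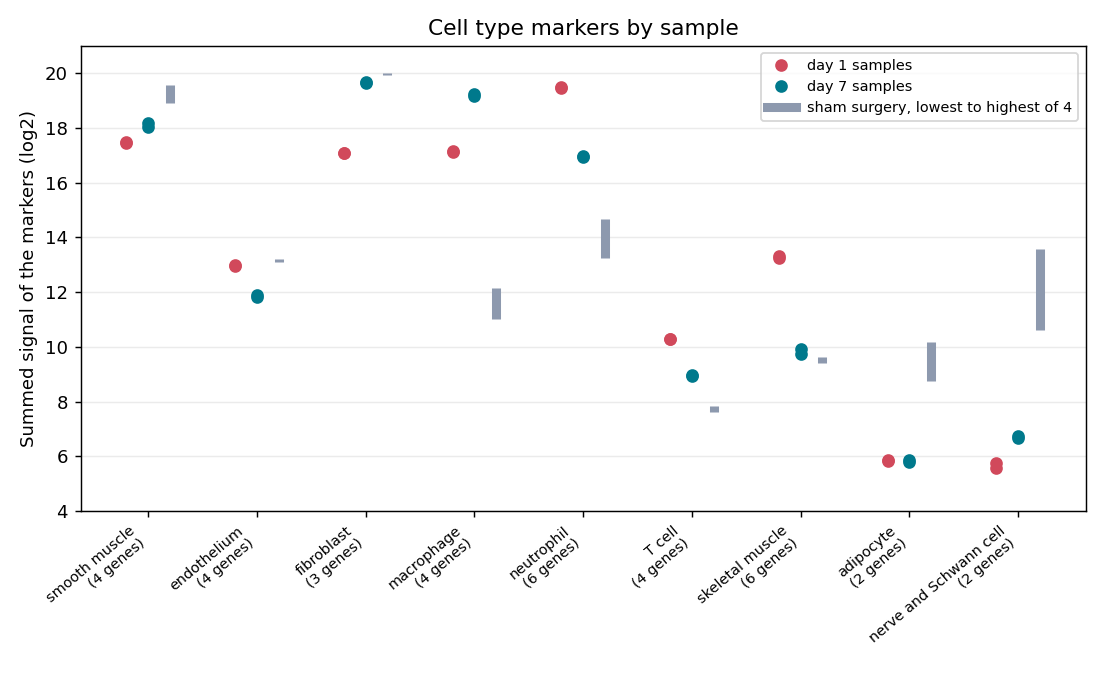
Log2 of the summed normalized signal of the named markers of each cell type (vertical axis), with 1 point per day 1 and day 7 sample and a bar for the range of the 4 sham samples. The neutrophil sum fell from 19.45 and 19.50 to 16.95 and 16.98, the macrophage sum rose from 17.12 and 17.15 to 19.24 and 19.18 (16.79 and 16.91 on day 7 without MMP12), and the skeletal muscle sum fell from 13.26 and 13.31 to 9.74 and 9.92.

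Of 12 tested matrix proteases and inhibitors, 6 were higher (50%) and 2 were lower (16.7%), against 19.2% and 22.3% of all genes. MMP13, a collagenase, was not above background on any day 1 array and was at least 18.6-fold higher on day 7, at 7.76 and 7.92 against a sham range of 1.19 to 1.25. MMP2 rose from 9.22 and 9.34 to 13.64 and 13.68, which is within the sham range of 13.61 to 14.09. ADAM9, a membrane-bound protease, rose from 9.71 and 9.77 to 13.21 and 13.17, above the sham samples at 10.74 to 11.59. MMP3 (stromelysin) and MMP1 (interstitial collagenase) rose by 1.38 and 1.20. MMP9 and TIMP3, an inhibitor bound to the matrix, fell by 5.05 and 2.19. MMP9 stood at 15.78 and 15.74 on day 1, at 10.65 and 10.76 on day 7 and at 7.78 to 8.77 in the sham samples.

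Of 20 tested collagens and matrix proteins, 12 were higher (60.0%, against 19.2% of all genes) and 3 were lower, with a median difference of 2.57, or 2.74 above the median of all genes. The counts were 13 higher and 4 lower with 75th percentile scaling and 13 higher and 0 lower with normexp. COL14A1, a collagen of the fibril surface, rose from 4.20 and 3.84 to 10.22 and 10.57 (log2 difference 6.38 ± 0.31, adjusted p = 6.82e-06), with 4 of the 6 day 1 arrays above background, and was below its sham range of 11.56 to 12.46 at both times. COL1A2, a chain of collagen I, rose from 16.29 and 16.33 to 18.91 and 19.13 by its brightest probe, which met the sham samples at 18.95 to 19.07. This probe gave the lowest difference of the 11 COL1A2 probes, which ran from 2.71 to 6.03. COL5A2 went beyond the sham level, from 13.61 and 13.62 to 18.41 and 18.36 against 16.58 to 17.03. VCAN, the large proteoglycan versican, rose from 12.48 and 12.62 to 16.37 and 16.42 against sham levels of 12.32 to 13.36, although its 6 probes ran from -0.19 to 3.96. HAS2, which makes hyaluronan, rose by 2.44. LUM (lumican) and MGP (matrix Gla protein, an inhibitor of calcification) rose by 3.33 and 2.75. DCN, decorin, with a difference of 0.98 by its brightest probe fell just short of the threshold for a DEG, although its 6 probes ran from 0.98 to 5.80 and 75th percentile scaling gave 1.73, and at 16.20 and 16.12 was below the sham samples at 17.95 to 18.19. MATN1, a cartilage matrix protein, fell by 1.08, a call lost with normexp and without day 1 sample 2 or day 7 sample 2.

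**Figure D5:**
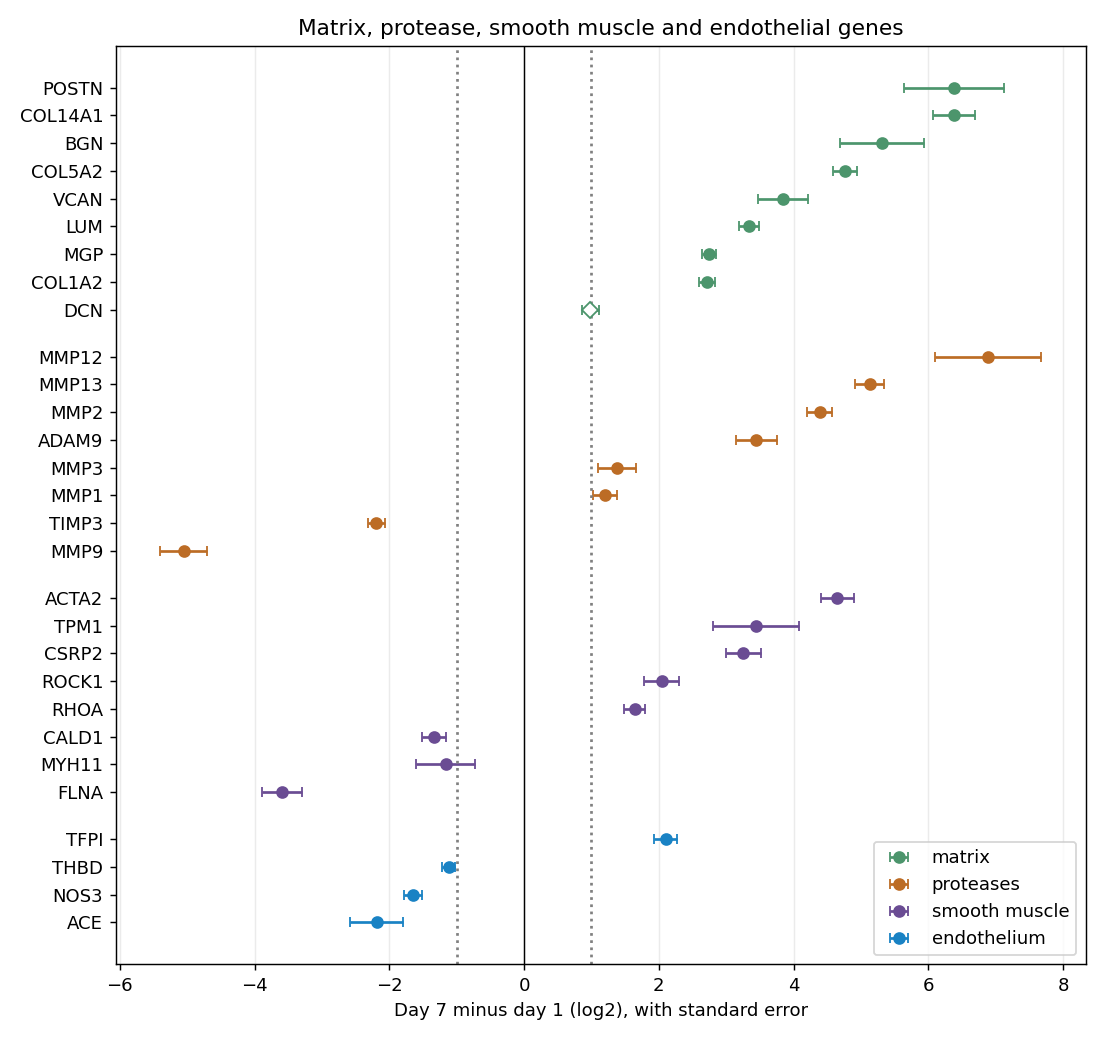
Log2 difference of day 7 minus day 1 (horizontal axis) for matrix genes, proteases and their inhibitor, smooth muscle genes and endothelial genes, with standard errors from the model of the 3 groups. Dotted lines mark a difference of 1 in either direction, and an open diamond is a gene that was not a DEG. MMP12 (6.89) and MMP9 (-5.05) are at opposite ends of the proteases.

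Smooth muscle genes moved in both directions. Among 20 contractile and cytoskeletal genes 7 rose (35%) and 3 fell (15%), against 19.2% and 22.3% of all genes. The median difference was 0.49. ACTA2 rose from 13.09 and 13.02 to 17.59 and 17.83, just under its sham range of 17.89 to 18.50. TPM1, a tropomyosin, rose from 11.93 in both samples to 15.21 and 15.52, and CSRP2, a LIM protein of smooth muscle, from 12.61 and 12.59 to 15.60 and 16.12 (sham 17.29 to 17.90). RHOA and ROCK1, the switch and the kinase that set contractile tone, rose by 1.64 and 2.04. In contrast MYH11, the myosin heavy chain of mature smooth muscle, was at 11.33 and 11.36 on day 1 and at 9.86 and 10.50 on day 7, while the sham samples stood at 16.11 to 17.19. Its adjusted p was 0.0495 and rose to 0.0592 to 0.233 with any graft sample left out. CALD1, caldesmon, fell by 1.33 but had a difference of 0.15 after 75th percentile scaling centred on the median gene, and FLNA, filamin A, fell by 3.59. DES, desmin, was at 9.68 and 9.59 and then at 7.57 and 7.82 with an adjusted p of 0.0961. The 4 smooth muscle markers summed to 17.47 and 17.48 on day 1, 18.03 and 18.19 on day 7 and 18.93 to 19.58 in the sham samples. ACTA2 carried the rise of this sum, since the levels of CALD1, MYH11 and DES were lower on day 7. CALD1 was the brightest marker on day 1 and went from 17.37 and 17.38 to 16.09 and 15.99.

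Among 20 growth factors and receptors, 7 rose (35.0%) and 5 fell (25%), against 19.2% and 22.3% of all genes. IGF1, a growth factor for smooth muscle cells and fibroblasts, rose from 6.68 and 6.69 to 10.51 and 10.58, within the sham range of 10.13 to 11.72. FGF7, which stromal cells release for epithelium, rose from 9.17 and 9.34 to 12.53 and 12.98, above the sham samples at 10.01 to 10.64. TGFB3, a TGF-beta ligand, and MET, the receptor of hepatocyte growth factor, were not above background on any day 1 array and were at least 6.32-fold and 2.90-fold higher on day 7, calls that normexp lost. BMP2 fell from 11.78 in both samples to 9.63 and 9.73, below the sham samples at 13.24 to 13.91. EDN1, the vasoconstrictor endothelin, and EDNRB, a receptor of it, fell by 1.92 and 1.94. Of 6 immediate early and stress factors, 4 were lower (66.7%) and 1 was higher (16.7%), against 22.3% and 19.2% of all genes. FOS and JUN, partners in AP-1, fell by 1.05 and 1.18, and GADD45A, which is induced by DNA damage, by 1.46. The calls of FOS and JUN were lost without day 7 sample 1, and that of JUN without day 1 sample 1 and with normexp. KLF5, a factor of activated smooth muscle, fell by 1.38, and its 7 probes ran from -1.38 to 0.11. HIF1A, the oxygen-regulated factor, rose from 14.19 and 14.10 to 16.72 and 16.73, above the sham range of 14.15 to 14.31. Of 11 cell cycle genes 7 rose (63.6%, against 19.2% of all genes). CDK2, a kinase of DNA replication, rose by 2.26 and CHEK2, a checkpoint kinase, by 1.44. CDC25A, a phosphatase that activates such kinases, and HMGB2, a chromatin protein, fell by 1.44 and 1.98. The 4 probes of CDC25A ran from -1.44 to 0.07. Both CDC25A and HMGB2 lost their call with 75th percentile scaling centred on the median gene. Normexp lost the calls of CDK2 and CDC25A.

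Of 8 tested endothelial genes, 3 were lower (37.5%) and 1 was higher (12.5%), against 22.3% and 19.2% of all genes. NOS3, the nitric oxide synthase of endothelium, fell from 7.59 and 7.54 to 5.90 and 5.93, further below its sham range of 8.74 to 9.06, although normexp lost this call. THBD, the thrombin receptor thrombomodulin, fell from 12.92 and 12.94 to 11.77 and 11.85 (sham 13.03 to 13.13). ACE, the angiotensin-converting enzyme, fell by 2.19. KDR, the main receptor of vascular endothelial growth factor, was not above background on any graft array but was on the 4 sham arrays. The marker sum of endothelium was 12.96 and 12.98 on day 1, 11.81 and 11.88 on day 7 and 13.11 to 13.22 in the sham samples. THBD was by far the brightest of its 4 markers, so that the sum adds little to the THBD levels above.

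In coagulation and fibrinolysis 5 of 14 genes rose (35.7%) and 4 fell (28.6%), against 19.2% and 22.3% of all genes. With 75th percentile scaling 4 rose and 8 fell. F3, the tissue factor that starts clotting, rose from 12.12 and 12.10 to 13.85 and 14.06 (sham 13.94 to 15.02). Its inhibitor TFPI rose as well, from 9.98 and 10.03 to 12.10 and 12.11. ANXA5, which covers exposed phosphatidylserine, and PLAT, a plasminogen activator, rose by 1.22 and 1.48, but the call of PLAT was lost with 75th percentile scaling and with normexp. The 4 probes of ANXA5 ran from 1.22 to 2.90. SERPINB2, an inhibitor of plasminogen activators, fell by 2.02, FGG, a fibrinogen chain, by 1.38 and PROS1, the anticoagulant protein S, by 1.41. The calls of FGG with normexp and of PROS1 without day 7 sample 1 were lost. Among 5 complement genes 1 rose (20%) and 2 fell (40%), against 19.2% and 22.3% of all genes. C1S rose, and C8A and C9 of the membrane attack complex were lower by at least 1.88-fold and by 1.42 on the log2 scale. Normexp lost the call of C8A, and the 3 probes of C9 ran from -1.42 to 0.74.

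Of 15 tested prostanoid, leukotriene and nitric oxide genes, 6 were lower (40%) and 1 was higher (6.67%), against 22.3% and 19.2% of all genes. PTGER3, a receptor of prostaglandin E2, fell from 9.82 and 9.92 to 5.43 and 5.61, and its adjusted p of 0.0100 became 0.0436 to 0.0508 with a graft sample left out, the call being lost without day 7 sample 1. PTGS2, the inducible cyclooxygenase, was at 17.06 and 17.20 on day 1 and at 15.13 in day 7 sample 2, while sample 1 of day 7 had no usable value, so that its fall by 1.99 rests on 1 sample of day 7. PTGDS, a prostaglandin D synthase, fell by 1.67. Among 20 vasoactive genes 8 were lower (40%) and 4 were higher (20%), against 22.3% and 19.2% of all genes. PENK, the enkephalin precursor, fell from 9.35 and 9.63 to 5.30 and 5.54 (sham 12.73 to 14.39). NPPA, the atrial natriuretic peptide, fell by 2.18, with 5 probes between -2.18 and -0.29, whereas NPR3, the clearance receptor for such peptides, rose from 6.17 and 6.28 to 10.12 and 10.01, above the sham range of 7.25 to 7.37. AGTR1, the main receptor of angiotensin II, rose by 1.46 and stayed below the sham samples (9.09 and 9.36 against 13.23 to 13.34). AGTR2, the other angiotensin receptor, fell by 1.99, with 4 probes between -1.99 and 2.30.

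Energy and stress genes changed in part. XDH, the xanthine oxidoreductase that makes urate, rose from 8.53 and 8.57 to 12.67 and 12.48 (16.2-fold, adjusted p = 7.95e-06) against sham levels of 3.58 to 4.13. ENO1, a glycolytic enzyme, rose by 2.15 and the chaperone HSP90AB1 by 1.75. LDHA, lactate dehydrogenase A, rose by 1.09, but its adjusted p of 0.0331 became 0.103 to 0.109 with any graft sample left out. GPX3, the secreted glutathione peroxidase, fell from 14.92 and 14.22 to 9.90 and 10.50, below the sham samples at 12.35 to 12.78, and GCLC, which makes glutathione, fell by 1.23. CRYAB, a small heat shock protein, fell by 2.80. Of 22 genes in this list 4 rose (18.2%) and 3 fell (13.6%), against 19.2% and 22.3% of all genes. Among 15 genes of mitochondrial respiration 5 rose (33.3%) and 2 fell (13.3%), against 19.2% and 22.3% of all genes. The outer membrane channels VDAC1 and VDAC2 rose by 3.91-fold and 2.83-fold, and the nucleotide carrier SLC25A4 by 3.43-fold. Citrate synthase (CS) rose by 2.58-fold and SDHB of complex II by 2.40-fold. The 5 SDHB probes ran from 0.41 to 1.53 on the log2 scale. UCP1, the uncoupling protein of brown fat, and NDUFA2 of complex I fell by 1.67 and 1.14, calls that normexp lost. ADH1A, an alcohol dehydrogenase, fell by 1.59, with 3 probes between -1.59 and 0.09, and was below the sham range of 16.27 to 16.88 in both groups, at 10.04 and 9.58 and then at 8.08 and 8.37. LCAT, which esterifies cholesterol and was above background on 3 of the 6 day 1 arrays, rose by 2.41, a call that normexp lost. ADIPOQ, the adiponectin of fat cells, was not above background on any day 1 array and was at least 2.41-fold higher on day 7, although its call was lost with normexp and with 75th percentile scaling and its level of 4.96 and 4.83 was far from the sham range of 8.60 to 10.11. Of 35 ribosomal proteins and translation factors 5 rose (14.3%) and 3 fell (8.57%), against 19.2% and 22.3% of all genes. These changes were led by EIF2AK3, a stress kinase of the endoplasmic reticulum (2.60), EIF4G1, an initiation factor (2.23), and EEF1A2 (-5.84). PSMD4, a ubiquitin receptor of the proteasome, and UBE2T, a ubiquitin-conjugating enzyme, rose by 2.75 and 2.27. They were 2 of 11 proteasome and ubiquitin genes (18.2%, against 19.2% of all genes), and the other 9 were not DEGs. With 75th percentile scaling centred on the median gene, 18 of the 35 translation genes were higher and 1 was lower. Of the 11 proteasome and ubiquitin genes 8 were higher there and 0 lower, and of 2001 named genes 663 were higher. The counts of both lists therefore depend on the normalization.

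Genes of striated muscle were lower on day 7. Of 16 skeletal and cardiac muscle markers 11 fell (68.8%) and 0 rose, against 22.3% and 19.2% of all genes. The median difference was -1.64, and normexp left 8 lower and 0 higher. MYH1, a fast skeletal myosin, fell 25.6-fold to 6.22 and 6.34 (sham 5.60 to 6.01). TNNC2 and TNNI2, troponins of fast fibres, fell by 3.59 and 1.53, and MYL1, a fast myosin light chain, by 3.84. CKM, the creatine kinase of muscle, was above background on all 6 day 1 arrays and on no day 7 array, a fall of at least 4.14-fold that normexp lost. The summed signal of the skeletal muscle markers was 13.26 and 13.31 on day 1, 9.74 and 9.92 on day 7 and 9.41 to 9.64 in the sham samples.

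Ion channels and transport genes are considered beside these markers, since some are genes of muscle. Of 72 potassium, calcium and sodium channels and calcium handling genes 26 fell (36.1%) and 7 rose (9.72%), against 22.3% and 19.2% of all genes. The counts were 38 lower and 3 higher under 75th percentile scaling and 9 lower and 2 higher with normexp. ATP2A1, the calcium pump of fast muscle, fell from 12.08 and 12.11 to 6.40 and 6.25, and SLN, the sarcolipin that inhibits such pumps, fell by 3.34. The part of muscle RNA in the falls of channel genes and of EEF1A2 was not tested. TRPV5, an epithelial calcium channel, fell by 2.90 by its brightest probe, with 3 probes between -2.90 and -0.05. KCNA5, a potassium channel of smooth muscle, fell by 1.83, a call that normexp lost. ATP1B3, a beta subunit of the sodium pump, rose by 1.52. CACNA1C, the calcium channel of smooth muscle, was not above background on any day 1 array and was at least 2.04-fold higher on day 7, a call that the 75th percentile scaling and normexp lost.

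Of 74 solute carriers, 13 rose (17.6%) and 18 fell (24.3%), close to the shares of all genes, and with 75th percentile scaling 8 rose and 30 fell. SLC3A2, a partner of amino acid exchangers, rose from 9.29 and 9.41 to 12.48 and 12.41, above the sham samples at 9.13 to 9.30. SLC25A15, an ornithine carrier of mitochondria, rose by 3.30. SLC4A2, an anion exchanger, was not above background on any day 1 array and was at least 8.10-fold higher on day 7, but its call was lost with normexp. SLC22A3, an organic cation transporter, fell from 11.94 and 11.42 to 8.58 in both samples, far below the sham range of 15.09 to 15.78, although its 6 probes ran from -3.89 to -0.19. SLC5A2 (a glucose cotransporter), SLC22A8 (an organic anion transporter) and SLC47A1 (an exporter of organic cations) fell by 3.03, 2.30 and 2.27. Enzymes of drug and lipid oxidation were lower in 15 of 39 tested cases (38.5%) and higher in 2 (5.13%), against 22.3% and 19.2% of all genes. The counts were 25 lower and 2 higher under 75th percentile scaling and 8 lower and 2 higher with normexp. FMO2, a flavin monooxygenase, was on no day 7 array above background, at least 7.73-fold below day 1, and stood at 6.66 and 6.58 on day 1 against 12.49 to 12.89 in the sham samples. CES1, a carboxylesterase, fell 14.4-fold to 7.60 and 7.66, and CYP4A5, a fatty acid hydroxylase, by 3.02. CYP4B1 fell by 2.995, a call that was lost without day 1 sample 2 or day 7 sample 2. CYP27C1 and CYP4V2, which act on retinoids and fatty acids, rose by 2.39 and 1.43. Among the smaller lists, 1 of 7 ABC transporters rose (14.3%) and 3 fell (42.9%). Of 15 genes of fatty acid, alcohol and steroid metabolism 4 rose (26.7%) and 3 fell (20%), and 1 of 5 adipocyte markers moved in each direction (20% each). Of the 3 erythroid markers 0 were DEGs, and 1 of 3 neural and Schwann cell markers rose (33.3%). Over all genes 19.2% were higher and 22.3% were lower.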

How the data were processed

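RNA of vein grafts on day 1 and day 7 and of sham surgery veins was measured on 16 arrays. The authors deposited background-subtracted spot intensity values, written by Agilent Feature Extraction (11.0.1.1 in the file headers, 9.1 in the submitters' processing notes). They also deposited log2 values, quantile-normalized in GeneSpring and filtered on low intensity (33670 probes), which served as an alternative.

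From the intensities, control spots and spots marked non-uniform or outlying were removed, log2 signals were quantile-normalized and spots of a probe were averaged. A probe was kept if all arrays of any group had it well above background, and the brightest probe stood for its gene. Where no array of a group had a probe above background, the fold is a bound set by the lowest signals well above background. Names came from RefSeq genes of the assembly mOryCun1.1 (3368 probes) and from gene identifiers in the paper's supplement (2816 probes). The 633 probes with both had the same gene. The files' own annotation uses oryCun2, and no coordinates or sequences are used here.

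Day 1 and day 7 entered 1 limma model (3.58.1, R 4.3.3, data.table in version 1.17.8) with the sham samples, and p-values are two-sided. DEGs followed the thresholds of the authors' code. The members, gene lists and markers were chosen with earlier results of these data known. Genes named are the 12 largest rises and falls among DEGs above background on all graft arrays, up to 4 DEGs per direction in each of 32 lists and the cell type markers. IL1B, IL1RN, IL6, VCAN, LUM, MGP, COL1A2, HAS2, MMP3, MMP1, RHOA and the other genes outside this rule were chosen after their values were seen. Some genes that meet the rule are not reported here. List counts are read against the shares over all genes, with no set test. Alternatives were separate arrays, the authors' values, scaling to the 75th percentile, normexp (offset 50), other filters, the mean of probes, fits without sham, sham pairs, scan and replicate blocks and each sample left out. The procedure was tested on simulated data of 19112 genes for day 7 against day 1, where it recovered 89 of 100 changes of 3 and 70 of 100 changes of 1.5 on the log2 scale, with 1 false call. The simulation changed 200 genes, gave each gene 1 spread in all groups and left out normalization. In the data 41.5% of genes were called and sham samples lay further apart than graft samples. The false call count therefore does not carry over to the data. Python 3.11.15 drew the figures (matplotlib 3.10.9, pandas 2.3.3).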

Additional observations from a re-analysis of the deposited data

How the results depend on the processing

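Of 174 DEGs named by rule, 174 kept their call with 16 separate arrays, with the scan as a block, within scans 2 and 3 and with the days fitted alone, 172 within scan 1, 158 with 75th percentile scaling, 135 with normexp, 162 with the mean of probes, 170 of 171 with the authors' values, and 153 to 164 with 1 graft sample left out. Within the 3 scans 8462, 8459 and 8411 genes were DEGs, against 8020, and leaving out samples gave 7248 to 8110. Each of the 3 scans held 1 array of each averaged graft sample, and arrays of a sample differed by less than spots. Separate scans and separate arrays therefore repeat the same graft samples and do not test the calls on others. With 75th percentile scaling, 7643 genes were lower, so that 25.8% of DEGs were higher instead of 46.3%. With that scaling centred on the median gene, an alternative chosen after seeing the data, 663 named DEGs were higher, and CALD1 (0.15), CCL2 (0.17) and IL1B (0.033) changed sign. C9, CCL4, CD5, CDC25A, CYBA, FAS, FOS, GADD45A, GCLC, HMGB2, KLF5, LY96, MYH11, PROS1, PTGS2, S100A8, THBD, TLR4, TNF and TNNI2 lost their call there, and ADH1A, AGTR2, C9, CDC25A, CTSK, FAS, KLF5, LDHA, MYH11, NPPA and SDHB lost it with the mean of probes. Normexp gave 3876 DEGs (1866 higher, 2010 lower) and 517 named ones (267 and 250), and the 4208 DEGs it lost had a median level of 5.66, against 8.93 for the 3812 it kept. Its offset shrinks differences of dim probes by construction, so that calls near background depend on this choice. Without MMP12 the difference of the macrophage marker sum was -0.25 instead of 2.07. The replicate block gave 8525 DEGs (890 named). Same-numbered arrays of the days correlated at 0.00205 to 0.0526, below the 0.1 set for pairing, so that no pairing was used. However, 4 of 6 matched best with their own number. Same-numbered arrays also shared a scan, so that this check cannot show whether the numbers link animals.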

Other observations

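Some genes outside the gene lists changed as much as those within them, and they were chosen after their values were seen. RLA-DR-ALPHA, the rabbit class II alpha chain, rose from 13.23 and 13.10 to 17.62 and 17.31 (sham 11.98 to 12.27), and RLA-DMB, which loads peptides onto such molecules, from 14.46 and 14.44 to 17.68 in both samples (sham 10.54 to 11.89). PDIA3, a disulfide isomerase, rose from 13.60 and 13.74 to 17.45 and 17.58, and CALU, a calcium-binding protein of the secretory pathway, rose by 4.35. CREB3L1, a stress factor of the endoplasmic reticulum, was not above background on any day 1 array and was at least 6.18-fold higher on day 7. MDK, the heparin-binding growth factor midkine, rose from 3.91 and 4.14, with 5 of the 6 day 1 arrays above background, to 10.31 and 10.24, and LIPG, endothelial lipase, was not above background on day 1 and at least 35.4-fold higher on day 7. GJA1, the gap junction protein connexin 43, rose by 4.16 and SFRP2, a secreted modulator of Wnt signals, by 3.10. KNL1, a kinetochore protein, and SHCBP1, a protein of dividing cells, rose by 4.29 and 3.46.

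The crystallin CRYBA4 was at 9.62 and 9.67 on day 1 and was above background on 1 of the 6 day 7 arrays, so that its low level on day 7 is near background, and the sham samples stood at 4.13 to 5.37. SNCG, a synuclein, was not above background on any day 7 array and was at least 33.2-fold lower than on day 1, where it stood at 8.58 and 8.92.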
